A study of Saccharomyces cerevisiae BY4741 with 8 samples.

Results

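The genes described here carry out sterol and fatty acid synthesis in budding yeast. They were taken as the spots of 37 open reading frames given by name: 28 of sterol synthesis, its regulators and sterol esters, and 9 of fatty acid synthesis, elongation and activation. All 37 were found, each on 1 spot, among 6388 genes on the arrays. In the mevalonate pathway acetyl-CoA is built up to farnesyl diphosphate, which is joined to squalene, closed to lanosterol and changed step by step to ergosterol, the main sterol of the yeast plasma membrane. The transcription factors Upc2 and Ecm22 switch on many of these genes when sterols run low. Fatty acids are made from the same acetyl-CoA by acetyl-CoA carboxylase and fatty acid synthase, desaturated by Ole1, lengthened by elongases and activated for use by acyl-CoA synthetases.

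KP1019 is a ruthenium complex developed as an anticancer drug. Cells of strain BY4741 in early log phase, in synthetic complete medium with glucose, were divided. One part of each culture received KP1019 at 40 or 80 μg/ml for 3 h, and the other part grew on for the same 3 h with no drug. Each dose was given to 2 biological replicates, and cDNA of each treated and untreated pair was hybridized to 2 spotted arrays, A and B, on which the Cy5 and Cy3 labels were switched. BY4741 descends from strain S288C, in which the gene of the heme-responsive activator Hap1, a regulator of several *ERG* genes, is interrupted by a transposon. The arrays were prepared up to scanning by the class of a college genetics course, and no array held both doses, so that dose and any batch of arrays cannot be told apart.

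Values below are log2 ratios of treated over untreated on each array, so that 1 stands for a 2-fold higher and -1 for a 2-fold lower transcript level. Ratios were set relative to the other spots of each array, and in RNA of whole cultures, lower levels per cell and fewer cells that express a gene cannot be told apart. The 2 dye-reversal arrays of a replicate were averaged, each error is the SD of 2 replicates, and tests were made with limma over all 6388 genes with Benjamini-Hochberg adjustment and a threshold of 0.05. The first replicate at 40 μg/ml had the widest ratios, with a median absolute deviation over all genes of 0.68, against 0.32 to 0.39 in the other 3. Ratios of the dye-reversal arrays correlated with r between 0.725 and 0.885 over the 37 genes and between 0.406 and 0.832 over all genes, with the low end in replicate 1 at 80 μg/ml.

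At 40 μg/ml, 6 of the 9 fatty acid genes and 3 of the 9 genes of the steps to farnesyl diphosphate fell, while 4 sterol genes and the desaturase gene *OLE1* rose. The fatty acid genes *FAS2* and *ELO1* did not pass. The genes that passed the limma test were 14 of 37. Of these, 9 were lower, or 24.3%, where 10.3% of all genes passed in that direction. The other 5 were higher, or 13.5%, a share close to the 13.0% of all genes. In both directions together 23.3% of all genes passed. Among 988 bright genes, above the 95th percentile of the blanks on all 8 arrays, 264 passed lower and 126 higher. Their median log2 ratio was -0.21, and 14 of the 37 are among them, with a median of -0.30. Of the calls among bright genes 32.3% were higher, beside 55.6% over all genes. The part of brightness in the share of lower genes among the 37 was not tested. The 9 fatty acid genes had a median log2 ratio of -0.80 and the 28 sterol genes one of 0.01, beside -0.01 over all genes. All 14 genes kept their sign on 4 of 4 arrays at this dose.

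*ACC1*, *FAS1* and *FAS2* encode the enzymes that build fatty acid chains. *FAS1* (YKL182W), the beta subunit of fatty acid synthase, had log2 ratios of -1.64 and -1.35 on the arrays of replicate 1 and -0.76 and -0.85 on those of replicate 2. Its mean of -1.15 ± 0.49 (SD, n = 2) was 2.22-fold lower than in untreated cells, with a limma adjusted p of 0.0117. *ACC1* (YNR016C), the acetyl-CoA carboxylase that makes malonyl-CoA, stood at -1.29 and -1.22 in replicate 1 and at -0.74 and -0.82 in replicate 2. All 4 arrays lay below 0, and the mean of -1.02 ± 0.33 (SD, n = 2) gave an adjusted p of 0.0112 in limma. *FAS2* (YPL231W), the alpha subunit that works in 1 complex with Fas1, lay near 0 with -0.17, 0.07, -0.15 and -0.10. The highest *FAS1* value was thus below the lowest *FAS2* value at 40 μg/ml. Before normalization the *FAS1* spot had intensities between 672 and 10984 in the treated channel and between 1305 and 23571 in the untreated channel over the 8 arrays.

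Both acyl-CoA synthetase genes among the 37 fell as well. *FAA1* (YOR317W), the main activator of long-chain fatty acids, had -1.47 and -1.53 in replicate 1 and -0.78 and -0.84 in replicate 2. The mean of -1.15 ± 0.49 (SD, n = 2) was 2.23-fold lower, the largest fold difference among the 37 genes at this dose (limma adjusted p = 0.0108). *FAA4* (YMR246W), its partner enzyme with overlapping use, had -1.12 and -1.22 in replicate 1 and weaker values of -0.32 and -0.53 in replicate 2. With a mean of -0.80 ± 0.53 (SD, n = 2) it passed in limma with an adjusted p of 0.0327, and without replicate 1 its value of -0.42 did not pass (adjusted p = 0.132).

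*ELO2* and *ELO3* encode the elongases that make the very long chains of sphingolipids. *ELO3* (YLR372W) read -0.76, -1.22, -0.69 and -0.59 on the 4 arrays, a mean of -0.82 ± 0.25 (SD, n = 2, limma adjusted p = 0.0172). *ELO2* (YCR034W) read -0.94 and -1.01 in replicate 1 and -0.69 and -0.43 in replicate 2. Its mean was -0.77 ± 0.29 (SD, n = 2, limma adjusted p = 0.0222), and without replicate 1 the value of -0.56 had an adjusted p of 0.0512. *ELO1* (YJL196C), which extends medium-length chains, had 0.12, -0.07, 0.09 and 0.46 and did not pass. *OLE1* (YGL055W), the only fatty acid desaturase gene of the species, was the 1 fatty acid gene that rose. It had 0.57 and 0.58 in replicate 1 and 1.01 and 0.83 in replicate 2, a mean of 0.75 ± 0.24 (SD, n = 2, limma adjusted p = 0.0321). The call was lost with median centring of the arrays (0.61, adjusted p = 0.0674) and with the deposited ratios (0.72, adjusted p = 0.0501).

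**Figure D1:**
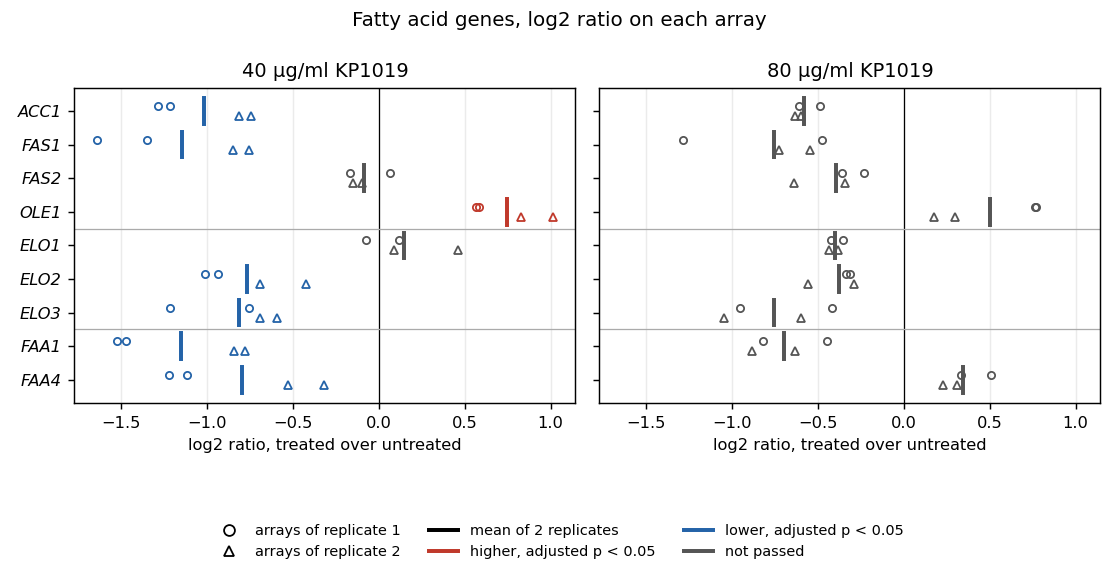
Log2 ratio of treated over untreated for the 9 fatty acid genes at 40 (left) and 80 μg/ml (right). Circles and triangles are the arrays of replicates 1 and 2, vertical bars the mean of 2 replicates, and colours mark an adjusted p under 0.05 in limma. At 40 μg/ml 6 genes lie below 0 on all 4 arrays and *OLE1* above 0, and at 80 μg/ml *FAA4* lies above 0.

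In the steps from acetyl-CoA to farnesyl diphosphate, 3 of 9 genes fell and 1 rose at 40 μg/ml. Over all genes 10.3% passed lower and 13.0% higher at this dose. *ERG13* (YML126C), the HMG-CoA synthase gene, had -1.38 and -1.32 in replicate 1 and -0.42 and -0.87 in replicate 2. The mean was -0.999 ± 0.50 (SD, n = 2, limma adjusted p = 0.0160). *MVD1* (YNR043W), the decarboxylase that closes the mevalonate part, had -1.19, -0.79, -0.98 and -0.59, a mean of -0.89 ± 0.15 (SD, n = 2, limma adjusted p = 0.0123). It was the 1 gene of the 14 that passed under every one of the 14 other ways of processing or leaving out samples in which it was tested. Among these, fitting 40 μg/ml alone and leaving out either replicate of the higher dose are the same fit, counted under each name. That fit gave *MVD1* a standard error of 0.267, the same as for *ERG13* and *ERG12*. *ERG12* (YMR208W), the mevalonate kinase gene, was the most even of the set, with -0.77, -0.75, -0.70 and -0.77. Its replicates differed by an SD of 0.014 around -0.75, and it passed the same test.

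*HMG1* (YML075C) moved the other way. It encodes the major isozyme of HMG-CoA reductase, the rate-limiting step, and lies between *ERG13* and *ERG12* in the order of reactions. Its ratios were 1.44 and 1.42 in replicate 1 and 0.42 and 0.70 in replicate 2, a mean of 1.00 ± 0.62 (SD, n = 2, limma adjusted p = 0.0227). Without replicate 1 its value was 0.56 and did not pass (adjusted p = 0.0607). The second isozyme gene, *HMG2* (YLR450W), had 0.88, 1.14, 0.25 and 0.21, which also lay above 0 on all 4 arrays and had an adjusted p of 0.0719 in limma. The other 4 genes of this segment, *ERG10* (YPL028W), *ERG8* (YMR220W), *IDI1* (YPL117C) and *ERG20*, had means between -0.15 and 0.43 and did not pass.

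*ERG20* (YJL167W), the farnesyl diphosphate synthase gene, was dim on the arrays of the lower dose. With 40 μg/ml its spot exceeded the blanks on 2 of 4 arrays in the treated channel and on 1 of 4 in the untreated channel, and the ratios of -0.40, 1.24, 0.03 and 0.86 changed sign between arrays A and B of replicate 1. The same spot exceeded the blanks in both channels of all 4 arrays at 80 μg/ml. Its intensities were 56.3 to 262 in the treated and 48.5 to 170 in the untreated channel of the 4 arrays at 40 μg/ml, and 2325 to 9803 in the treated and 3020 to 13085 in the untreated channel of those at 80 μg/ml.

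Of the genes for squalene and lanosterol formation, none passed at 40 μg/ml. *ERG9* (YHR190W), the squalene synthase gene, had 0.61, 0.82, 0.32 and 0.29, and *ERG7* (YHR072W), the lanosterol synthase gene, had -1.10, -0.88, -0.20 and -0.32. These genes, whose enzymes act before and after squalene epoxidase, lay on opposite sides of 0 on all 4 arrays, with adjusted p-values of 0.0755 and 0.0713 in limma. *ERG1* (YGR175C), the squalene epoxidase gene, averaged -0.10 ± 0.27 (SD, n = 2).

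Between lanosterol and zymosterol, the genes that rose belong to the complex that removes methyl groups from the sterol ring. *ERG25* (YGR060W), the methyl oxidase gene, had 1.01 and 1.33 in replicate 1 and 0.94 and 1.13 in replicate 2. Its mean of 1.10 ± 0.10 (SD, n = 2) was 2.15-fold higher than in untreated cells, the highest ratio of the 28 sterol genes (limma adjusted p = 0.00965). *ERG27* (YLR100W), the keto reductase of the complex, had 1.15 and 1.29 in replicate 1 and 0.65 and 0.85 in replicate 2, a mean of 0.99 ± 0.33 (SD, n = 2, limma adjusted p = 0.0128). *ERG26* (YGL001C), the decarboxylase that acts between these enzymes, had -0.17, -0.16, 0.13 and 0.16 and averaged -0.01. The scaffold gene *ERG28* (YER044C) averaged -0.36 ± 0.57 (SD, n = 2), and its replicates lay apart with -1.04 and -0.49 against -0.13 and 0.21. *ERG11* (YHR007C), the lanosterol demethylase that azole antifungals inhibit, had -0.62 and -0.29 in replicate 1 and 0.51 and 0.31 in replicate 2, so that its mean of -0.02 joined replicates of opposite sign. *ERG24* (YNL280C), a sterol reductase gene, averaged -0.09 ± 0.02 (SD, n = 2).

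In the last steps to ergosterol, *ERG5* (YMR015C) alone passed. It encodes a cytochrome P450 desaturase and had 0.53, 0.37, 0.60 and 0.90, a mean of 0.60 ± 0.22 (SD, n = 2). Its call was the least firm of the 14, since it was lost in 8 of 14 other settings. These 8 include the fit of the lower dose alone, which recurs when either replicate of the higher dose is left out. *ERG6* (YML008C), the sterol methyltransferase gene, averaged -0.51 ± 0.41 and did not pass (limma adjusted p = 0.0869). *ERG2* (YMR202W), *ERG3* (YLR056W) and *ERG4* (YGL012W), which encode an isomerase, a desaturase and the final reductase, averaged -0.02, -0.01 and 0.15.

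The regulators and the sterol ester genes gave no call at 40 μg/ml. *UPC2* (YDR213W) lay above 0 on all 4 arrays, with 1.37, 0.32, 0.16 and 0.72 (limma adjusted p = 0.0816), and *ECM22* (YLR228C) averaged 0.05 ± 0.23 (SD, n = 2). The acyltransferase genes that store sterols as esters had opposite signs on all 4 arrays. *ARE1* (YCR048W) averaged -0.28 ± 0.19 and *ARE2* (YNR019W) 0.49 ± 0.10 (SD, n = 2 each), with limma adjusted p-values of 0.246 and 0.0664. Both spots, and that of the oxysterol-binding protein gene *HES1* (YOR237W), were at the level of the blanks on at least 1 array in the treated channel at this dose.

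**Figure D2:**
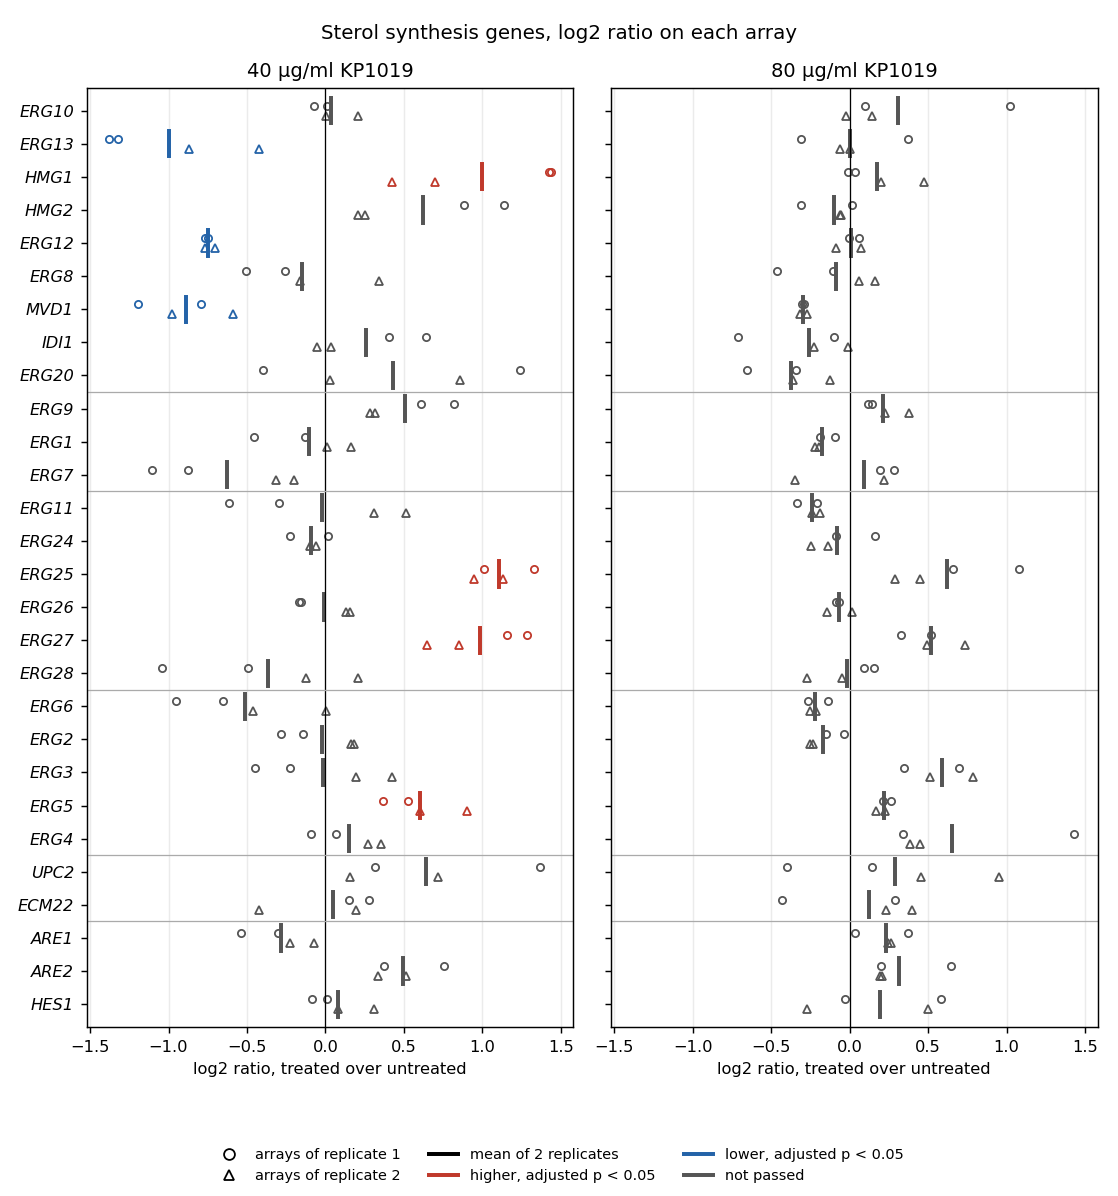
Log2 ratio of treated over untreated for the 28 sterol genes at 40 (left) and 80 μg/ml (right), in pathway order with lines between the roles. Circles and triangles are the arrays of replicates 1 and 2, vertical bars the mean of 2 replicates, and colours mark an adjusted p under 0.05 in limma. At 40 μg/ml *HMG1*, *ERG25*, *ERG27* and *ERG5* lie above 0 and *ERG13*, *ERG12* and *MVD1* below 0 on 4 of 4 arrays, and no gene is marked at 80 μg/ml.

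At 80 μg/ml none of the 37 genes passed the limma test, while 3.52% of all genes did (225). An unadjusted p under 0.05 was found for 11 of the 37, or 29.7%, beside 18.5% of all genes. They were 5 higher and 6 lower, or 13.5% and 16.2% of the 37, beside 10.2% and 8.23% of all genes. All 11 kept their sign on 4 of 4 arrays. The lowest adjusted p-values belonged to *ELO3* and *FAS1*. *ELO3* had -0.96, -0.42, -0.60 and -1.05, a mean of -0.76 ± 0.10 (SD, n = 2, limma adjusted p = 0.0588). *FAS1* had -1.29 and -0.47 in replicate 1 and -0.54 and -0.73 in replicate 2, a mean of -0.76 ± 0.17 (SD, n = 2, limma adjusted p = 0.0953). Of the fatty acid genes, *ACC1* (-0.58), *FAA1* (-0.70), *FAS2* (-0.40) and *ELO1* (-0.40) also belonged to the 11 on the lower side and *OLE1* (0.50) on the higher side.

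The sterol genes among these 11 all lay above 0. *ERG25* had 1.08, 0.66, 0.29 and 0.45 and *ERG27* had 0.33, 0.52, 0.49 and 0.73, which gave means of 0.62 ± 0.35 and 0.52 ± 0.13 (SD, n = 2 each). *ERG3* had 0.70, 0.35, 0.51 and 0.78, and *ERG4* had 1.43, 0.34, 0.45 and 0.38. *ERG3* and *ERG4*, late genes at -0.01 and 0.15 with 40 μg/ml, had means of 0.59 ± 0.09 and 0.65 ± 0.33 (SD, n = 2 each) at 80 μg/ml. The highest *ERG4* value was that of array A of replicate 1. *HMG1* was at -0.01, 0.03, 0.47 and 0.20, and *ERG12* at -0.00, 0.06, 0.07 and -0.09.

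Both doses shared 1 estimate of the spread, to which the wide replicate at 40 μg/ml contributed. When the arrays of 80 μg/ml were fitted alone, the same 11 genes passed in limma, 5 higher and 6 lower, beside 12.1% and 10.0% of all genes, or 22.2% in both directions. Adjusted p-values then lay at 0.00105 for *FAS1*, 0.000926 for *ELO3* and 0.00718 for *ERG25*. This fit leaves 1 residual degree of freedom per gene, so that its p-values rest largely on a spread shared over all genes.

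Of the 37 genes, 27 had the same sign at both doses, beside 61.8% of all genes. All 14 genes that passed at 40 μg/ml had a smaller ratio in size at 80 μg/ml, which was also so for 92.5% of all genes that passed. The 5 genes that rose with the lower dose had ratios above 0 with the higher one, and 6 of the 9 that fell had ratios below 0. These 11 of 14 (78.6%) stand beside 80.5% of all genes that passed at 40 μg/ml, so that keeping the sign was no more common among them. *ERG9*, *ERG25*, *ERG27*, *ERG5*, *ARE2* and *OLE1* were higher on 8 of 8 arrays, a pattern of 10.4% of all genes. *MVD1*, *ACC1*, *FAS1*, *ELO2*, *ELO3* and *FAA1* were lower on 8 of 8 arrays, a pattern of 9.78% of all genes.

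**Figure D3:**
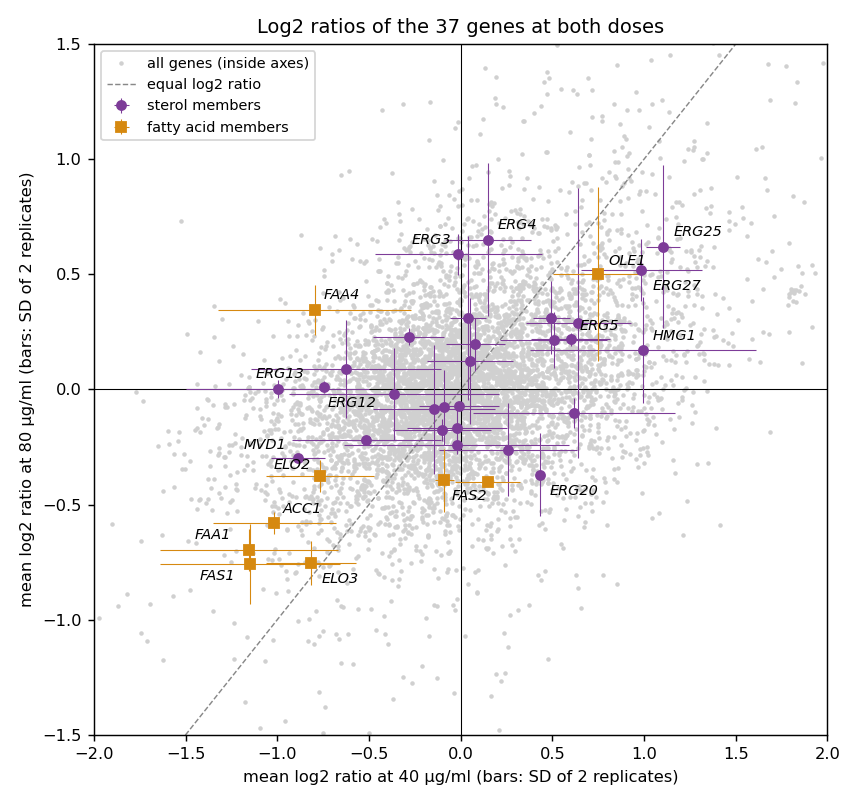
Mean log2 ratio of each of the 37 genes at 40 (horizontal) and 80 μg/ml (vertical), with bars for the SD of 2 replicates at each dose; grey points are all genes within the axes, and the dashed line marks equal ratios. *ACC1*, *FAS1*, *FAA1*, *ELO2* and *ELO3* lie in the lower left and *ERG25*, *ERG27* and *OLE1* in the upper right, while *FAA4* lies in the upper left with 0.34 at 80 and -0.80 at 40 μg/ml.

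The difference between the doses was tested directly. None of the 37 genes passed in limma, while 9 of all genes (0.141%) did. An unadjusted p under 0.05 was found for 9 of the 37, beside 20.9% of all genes. *FAA4* had the largest difference, since at 80 μg/ml its arrays read 0.33, 0.51, 0.31 and 0.23, all above 0, and at 40 μg/ml all 4 were below 0. The difference of 80 minus 40 μg/ml was 1.14, with a 95% confidence interval of 0.45 to 1.83 and a limma adjusted p of 0.137. *ERG13* differed by 1.00 (0.33 to 1.67) and *ERG12* by 0.76 (0.24 to 1.28), both near 0 at 80 and lower at 40 μg/ml. *HMG1* differed by -0.82 (-1.58 to -0.07) and *HMG2* by -0.72 (-1.42 to -0.02), both nearer 0 at 80 than at 40 μg/ml. In contrast, *ELO3* differed by 0.06, with an interval of -0.50 to 0.62 that leaves room for differences of either sign. With 2 replicates at each dose, the array number limits the precision of these differences.

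By the criteria of the study's methods, at least 3.5-fold in both replicates with agreement between dye-reversal arrays, none of the 37 genes counted as induced or repressed at either dose. The criteria were applied to the ratios computed here from mean intensities, while the study worked from total spot signal. Among all genes they gave 14 induced and 10 repressed with 40 μg/ml, against 5 and 10 with 80 μg/ml. With a limit of 2-fold in place of 3.5-fold, *ERG25* at 40 μg/ml was the 1 gene of the 37 to meet them. At 3.5-fold the deposited ratios gave 17 induced and 10 repressed with 40 μg/ml, and 7 and 12 with 80 μg/ml. None of the 37 was among those.

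Genes that work beside these enzymes were read as a separate list of 47. Of these, 5 rose (10.6%) and 7 fell (14.9%) at 40 μg/ml, shares near the 13.0% and 10.3% of all genes. At 80 μg/ml 1 rose and 1 fell, or 4.26%, near the 3.52% of all genes. *ACS2*, the acetyl-CoA synthetase that feeds both pathways in glucose, had the lowest ratio of the list at 40 μg/ml, -1.36 ± 0.61 (SD, n = 2, limma adjusted p = 0.00904), and was at -0.43 ± 0.07 at 80 μg/ml. Of the 10 partners in fatty acid metabolism 3 fell at 40 μg/ml (30.0%, beside 10.3% of all genes) and none rose. They were *IFA38* (-0.99) and *TSC13* (-0.62), which encode reductases of the elongation cycle, and the acyl-CoA synthetase gene *FAA3* (-0.65). Of the other acyl-CoA synthetase genes in this list, *FAA2* was at 0.34 and *FAT1* at -0.51, and neither passed (limma adjusted p = 0.374 and 0.0826). *FAA3* also fell at 80 μg/ml, to -0.94 ± 0.12 (SD, n = 2, limma adjusted p = 0.0375).

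In sterol uptake, esters and transfer, 2 of 15 genes rose at 40 μg/ml (13.3%), a share close to the 13.0% of all genes. They were *YEH1* (0.94), a steryl ester hydrolase gene, and *PDR11* (0.85), a sterol importer gene. *SUT1*, a regulator of sterol uptake, rose at 80 μg/ml by 1.17 ± 0.35 (SD, n = 2, limma adjusted p = 0.0249) and had 0.34 ± 0.39 at 40 μg/ml. Among 13 partners and branches of sterol synthesis, *ERG29* (0.87) and the dolichol gene *SRT1* (0.71) rose at 40 μg/ml (15.4%, beside 13.0% of all genes). *COQ1* (-1.03) of the ubiquinone branch, the dolichol gene *RER2* (-0.84) and *ACS2* fell at 40 μg/ml (23.1%, beside 10.3% of all genes). The replicates of *COQ1* lay apart, with means of -1.73 and -0.34. The *SRT1* spot was above the blanks on 2 of 4 arrays in the treated and 1 of 4 in the untreated channel at that dose. *MOT3*, a repressor of sterol and anaerobic genes, fell by 0.72. Of the 6 cell wall genes that Upc2 controls without oxygen, *DAN4* alone rose (0.85) at 40 μg/ml, or 16.7% beside 13.0% of all genes. *HAP1* was at -0.20 ± 0.02 at 40 and 0.23 ± 0.01 at 80 μg/ml.

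Outright subtraction of the background ended most calls at 40 μg/ml, among the 14 genes and over all genes. With it 6.55% of 5943 genes passed, beside 23.3% of 6388 in the main fit. When the local background was subtracted outright in place of a modelled correction, 13 of the 14 genes had limma adjusted p-values between 0.0502 and 0.0922 and only *MVD1* passed, although their ratios stayed between 0.66 and 1.26 in size and kept their signs. Over all other settings the signs of the 14 genes held as well. With no background correction at all, 4 of the 37 genes passed higher and 9 lower, beside 5 and 9 in the main fit.

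**Figure D4:**
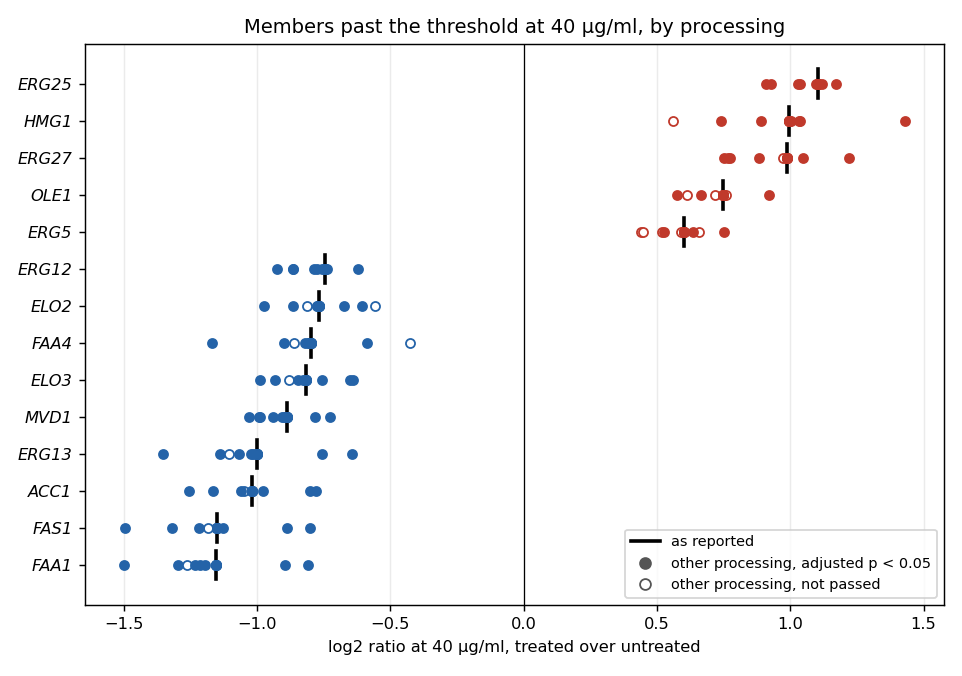
Log2 ratio at 40 μg/ml of the 14 genes that passed, as reported (black bars) and under each other way of processing or leaving out samples (points, filled where the adjusted p was under 0.05 in limma). None of the points crosses 0, *MVD1* has no open point, and *ERG5* has the most open points with 8. Fitting 40 μg/ml alone and leaving out either replicate of the higher dose are the same fit, counted under each name.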

How the data were processed

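The authors quantified array images in MagicTool 2.1 (adaptive circle, radius 3 to 8, threshold 50) and deposited unnormalized foreground and background intensities of 6688 features per array in both channels. They also deposited a table of ratios, signed fold changes whose normalization is not given in the sources used here; it was used as an alternative, and its correlation with red over green ratios computed here was 0.864 to 0.972. The median log2 value of its columns lay between -0.21 and 0.11, and its centring is not stated. Mean intensities were background-corrected (normexp, offset 50) and loess-normalized within arrays, giving no weight to 85 blank and 23 control spots (limma 3.58.1 in R 4.3.3). Dye-reversed arrays were turned and averaged per replicate, and both doses were fitted together (lmFit, eBayes, two-sided, 2 residual and 5.66 prior degrees of freedom, Benjamini-Hochberg over 6388 genes). A spot was above the blanks if it exceeded their median by 3 median absolute deviations. Treated channels had median intensities of 294 to 3736.

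Genes passing at a dose with 1 sign on 4 of 4 arrays were described singly, with full statistics for the 12 of largest ratio, and the others by value or range within their role. The 37 genes, their roles and the 47 other genes were chosen with earlier results of these data known. Gene names were matched to RefSeq locus tags for 5849 of 6388 genes. Promoter sequences were not analysed here. The fit was tested on simulated ratios, with equal spread in all replicates of a gene and the same changes at both doses. That test does not cover a replicate as wide as replicate 1 at 40 μg/ml. Nothing in the labels says how separate the cultures of the replicates were beyond the words biological sample, so that p-values refer to these samples only. They rest on a spread pooled over both doses and drawn toward that of all genes, not on the printed SD. At 40 μg/ml, for example, *HMG1* had an SD of 0.62 and a standard error of 0.23 in the fit. Alternatives covered background, normalization, scaling, total intensity, deposited ratios, dim spots, separate fits, a replicate block and each replicate left out.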

Additional observations from a re-analysis of the deposited data

Results flagged for a closer look

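In 4 of 74 groups of 4 arrays (37 genes at 2 doses), 1 array lay far from the other 3 by Dixon's criterion. By chance alone it marks about 5% of groups of 4 independent values. The arrays here are dye-reversal pairs of 2 replicates, so that this rate need not hold and the 4 cannot be set against it. All 4 were at 80 μg/ml, and 3 of them were on array A of replicate 1, whose correlation with its dye-reversal partner was the lowest over all genes (r = 0.406). On that array *ERG10* had a log2 ratio of 1.02, with 0.14 as the nearest other value. *ERG4* had 1.43 there, with 0.44 next, and *ARE2* had 0.65, with 0.21 next. On array A of replicate 2, *ERG7* had -0.35, with 0.20 next. With array A of replicate 1 left out, an alternative added after the data were seen, again none of the 37 genes passed at 80 μg/ml. The part of dye or array in these values was not tested.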

How the results depend on the processing

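Of 203 values of the 14 genes that passed at 40 μg/ml under other settings, 178 stayed past the threshold, 25 did not, and none changed sign. Settings that altered only the fit, the gene set or arrays of 80 μg/ml could not change the ratio at 40 μg/ml. Fitting 40 μg/ml alone and leaving out either replicate at 80 μg/ml are 1 fit, counted under each name. That fit gave *ERG12* and *HMG1* the same standard error of 0.267, although their replicates differed in spread. At 40 μg/ml 1489 of all genes passed, with 5 of the 37 higher and 9 lower. With subtracted background 389 genes passed, with 0 of the 37 higher and 1 lower. With bright genes only (988 genes, 14 of the 37) 390 passed, 126 higher and 264 lower, with 2 and 5 of the 37. At 80 μg/ml, where 225 genes passed, 53 and 7 passed in these settings, and for the difference between doses, where 9 passed, 0 and 1. Total intensity gave 3 and the deposited ratios 5 genes for the difference. The deposited ratios moved the split at 40 μg/ml to 1117 higher and 575 lower, beside 828 and 661, and at 80 μg/ml to 189 and 77, beside 135 and 90. Scaling the arrays to 1 spread gave 1476 genes at 80 μg/ml, with 5 of the 37 higher and 7 lower, and 597 for the difference, with 2 higher (*ERG13*, *FAA4*) and 1 lower (*ERG20*). Fitting each dose alone gave 1415 genes at 80 μg/ml, with 5 and 6 of the 37. With a limit of 2-fold, 1 of the 37 met the criteria of the methods at 40 μg/ml.

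Deviations of same-numbered replicates correlated with r = -0.14 between the doses, and the labels give no shared batch, so that the main fit did not pair the samples. Whether same-numbered replicates shared a culture or day cannot be told from this value. With a replicate block, 469 genes passed at 80 μg/ml, with 3 of the 37 lower, and 440 for the difference, with 2 higher. A crossed replicate block was added after the data were seen. At 40 μg/ml it gave 8 of the 37 higher and 11 lower, with 33.3% of all genes passing (1128 higher and 999 lower). It gave 702 genes at 80 μg/ml with 3 of the 37 higher and 4 lower, and 830 for the difference with 2 and 2. The crossed block also gave *ERG12* and *HMG1* at 40 μg/ml the same standard error of 0.208.

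Leaving out each replicate in turn gave 1080 to 3059 genes at 40 μg/ml, with 4 to 9 of the 37 higher and 7 to 12 lower. It gave 82 to 1415 genes at 80 μg/ml, with 0 to 5 higher and 0 to 6 lower, and 29 to 2339 for the difference, with 0 to 11 higher and 0 to 5 lower. The high ends belonged to fits without a replicate at 40 μg/ml, and the lone replicate was assumed to vary like the other dose. Without replicate 1 at 40 μg/ml, *HMG1*, *ELO2* and *FAA4* no longer passed. The causes were not tested. Dim spots limit *ERG20*, *ERG28*, *ARE1*, *ARE2* and *HES1* at 40 μg/ml.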

Other observations

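Enzymes that use molecular oxygen are spread over both pathways, and 6 of the 37 genes encode one (*ERG1*, *ERG11*, *ERG25*, *ERG3*, *ERG5* and *OLE1*), a grouping made after the values were seen and therefore not tested. At 40 μg/ml 3 of the 6 rose (*ERG25* 1.10, *OLE1* 0.75 and *ERG5* 0.60) and none fell, with *ERG1* at -0.10, *ERG11* at -0.02 and *ERG3* at -0.01. Over all genes 13.0% passed higher and 10.3% lower at this dose. The call of *ERG5* held in only 6 of 14 other settings, with the repeated fit counted under each name. At 80 μg/ml 4 of the 6 had ratios above 0, the exceptions being *ERG1* (-0.18) and *ERG11* (-0.24). Of all 6388 genes, 3216 had ratios below 0 at 80 μg/ml.

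Of 25 measured genes that lie next to one of the 14 genes that passed at 40 μg/ml, 7 passed as well at that dose, a share near the 23.3% of all genes. Of these 7, 3 had the sign of their neighbour and 4 the opposite sign. One of the 3 was *MIM2* beside *ERG27*, with log2 ratios of 0.95 at 40 μg/ml (limma adjusted p = 0.0159) and 0.51 at 80 μg/ml, where *ERG27* had 0.99 and 0.52. The others were *AGA1* beside *MVD1*, with -0.74 at 40 and -1.93 at 80 μg/ml, and *TIM23* beside *ACC1*, with -0.69 and -0.60. Those with the opposite sign at 40 μg/ml were *PGA3* (1.17) beside *ERG13*, *FPR3* (-0.91) beside *HMG1*, *ADE6* (-1.05) beside *ERG25* and *SMM1* (0.71) beside *ACC1*. These genes were named after their values were seen.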
